A study of Mus musculus with 12 samples.

Results

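Mouse peritoneal macrophages deficient in SAMHD1 and Cardif (SAMHD1 Cardif dKO) were compared with macrophages deficient in SAMHD1 and Sting (SAMHD1 Sting dKO). The comparison took 6 of the 12 libraries of the study, 3 of each genotype, and 13231 of the 15721 genes in the table, those with 10 or more normalized reads in 3 or more libraries. The other libraries, 3 from SAMHD1 KO and 3 from WT mice, share the estimate of spread and are given as context. Macrophages were isolated by FACS, their polyadenylated RNA was sequenced strand-specifically, and every mouse carries the strain label C57BL/6. Labelled ages, with no unit given, were 18, 18 and 16 for the SAMHD1 Cardif dKO mice, 24, 16 and 18 for the SAMHD1 Sting dKO mice, 19, 18 and 16 for the SAMHD1 KO mice and 16 for each WT mouse. SAMHD1 Cardif dKO replicate 1 came from a male mouse and the other libraries from females. Both dKO groups share the SAMHD1 deficiency, so neither is a control for it. The labels name no targeting construct, no sort gate and no founder line for the alleles, and they do not say whether a library holds RNA of 1 mouse or of several, so the p-values measure the spread between these libraries.

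SAMHD1 is an enzyme that breaks down deoxynucleoside triphosphates, and cells without it are known for spontaneous production of type I interferon. Cells detect misplaced nucleic acid by a pair of main routes: the RNA sensors RIG-I and MDA5 signal through the mitochondrial adaptor MAVS, also called Cardif, while the DNA sensor cGAS makes a cyclic dinucleotide that activates STING at the endoplasmic reticulum. Both routes reach the kinase TBK1 and the transcription factor IRF3, which switch on interferon genes. Secreted interferon then acts through its receptor, and a DNA element named the interferon-stimulated response element (ISRE) stands in front of many responding genes. The comparison asks how the transcripts of SAMHD1-deficient macrophages differ between loss of the RNA route and loss of the DNA route.

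Recovered depth was 18884021 to 23103719 reads in SAMHD1 Cardif dKO, 19294490 to 21000618 reads in SAMHD1 Sting dKO and 21953731 to 32204657 reads in the other libraries. Large peritoneal macrophage genes, used to check the cell type, were all tested (43 of 43) and summed to 2454400 to 2769500 normalized reads in SAMHD1 Cardif dKO, against 2384200 to 2719200 in SAMHD1 Sting dKO. Gata6, the transcription factor that defines these cells, had 4088, 3345 and 3981 in SAMHD1 Cardif dKO, against 3273, 3744 and 3169.8 in SAMHD1 Sting dKO, which overlap. Emr1, which encodes the macrophage surface protein F4/80, had 67722 to 72193 and 56006 to 65282 normalized reads in the same groups, which do not overlap, and its log2 difference was 0.20 (SE 0.119, adjusted p = 0.469 by limma). Reads of Xist and Ddx3y matched the labelled sex in 12 of 12 libraries. Over the 6 dKO libraries the first principal component held 53.1% of the variance of log2 values and the groups did not overlap on it, with SAMHD1 Cardif dKO replicate 1 and SAMHD1 Sting dKO replicate 3 at its ends.

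The targeted genes come first, and the values of a gene are its normalized reads in replicates 1, 2 and 3 unless a range is given. Mavs (ENSMUSG00000037523), which encodes Cardif, had 509, 525 and 519.9 in SAMHD1 Cardif dKO, against 1008, 768 and 955 in SAMHD1 Sting dKO. All 3 SAMHD1 Cardif dKO libraries lay below all 3 SAMHD1 Sting dKO libraries, and SAMHD1 KO (840.2 to 966) and WT (816 to 911) stood with SAMHD1 Sting dKO. The log2 difference was -0.80 (SE 0.101, adjusted p = 0.0225) by limma, so Mavs transcript was lower in SAMHD1 Cardif dKO with reads remaining in all 3 of its libraries. Tmem173 (ENSMUSG00000024349), which encodes STING, had 577, 611 and 653 in SAMHD1 Cardif dKO, against 577, 538 and 539 in SAMHD1 Sting dKO, a log2 difference of 0.15 (SE 0.0840, adjusted p = 0.412). Replicate 1 of both groups stood at the same level and the difference did not pass the test, so reads of Tmem173 give no check of the label, and the libraries are called by it. Samhd1 (ENSMUSG00000027639) had 2952, 3581 and 4307 in SAMHD1 Cardif dKO, against 3196, 3291 and 4563 in SAMHD1 Sting dKO, a log2 difference of -0.03 (SE 0.167, adjusted p = 0.959), and the groups overlapped. Its level was 5555 to 7816 in SAMHD1 KO and 10113 to 11525 in WT. The reads of these 3 genes by library are plotted with those of the leading genes of the comparison.

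**Figure D1:**
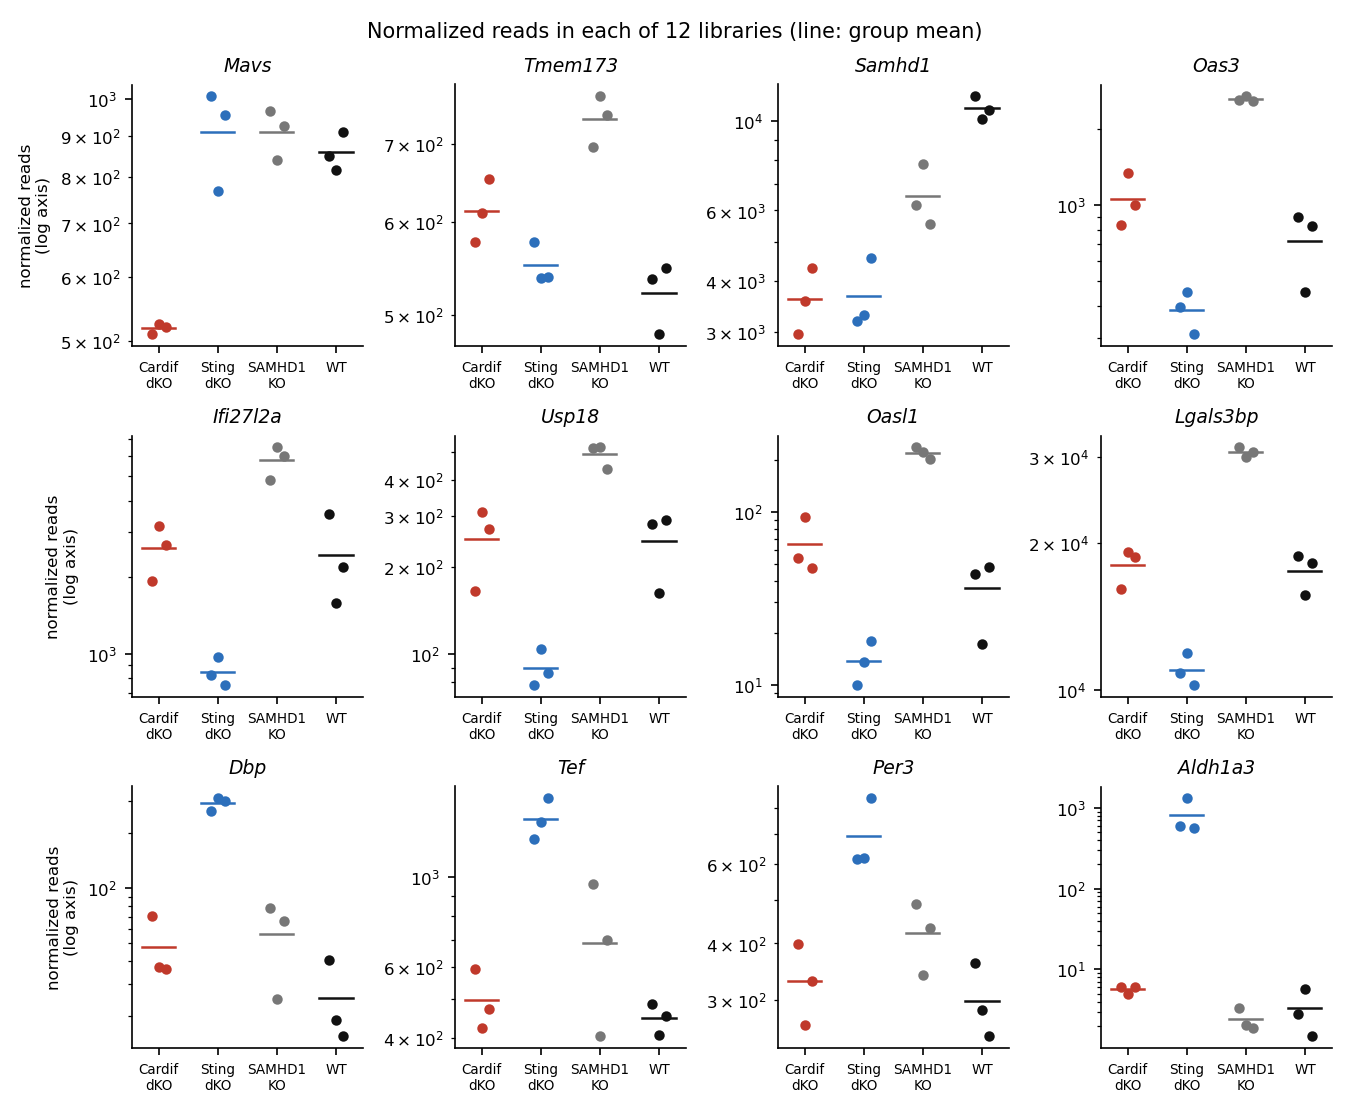
Normalized reads (log axis) of 12 genes in each library of SAMHD1 Cardif dKO, SAMHD1 Sting dKO, SAMHD1 KO and WT, with a line at the group mean (n = 3 each). Mavs lies between 509 and 525 in SAMHD1 Cardif dKO with 768 or more in every other library, Aldh1a3 is at 566 or more in SAMHD1 Sting dKO alone, and the interferon genes Oas3, Ifi27l2a, Usp18, Oasl1 and Lgals3bp are lowest in SAMHD1 Sting dKO by group mean.

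Of the 13231 genes tested, 37 (0.28%) differed between the dKO groups by limma at a Benjamini-Hochberg adjusted p under 0.05, the rule for a call throughout. In SAMHD1 Cardif dKO 12 were higher (0.0907% of tested genes) and 25 were lower (0.189%), and 22 of the 37 differed by over 2-fold. For each of the 37 the groups did not overlap, which held for 9.91% of all tested genes in the higher direction and 9.16% in the lower. EdgeR on the recovered reads called 42 genes, 12 higher (0.0907%) and 30 lower (0.227%), and DESeq2 called 257 higher (1.94%) and 246 lower (1.86%), and both called all 37. In the authors' deposited table, 155 genes have an adjusted p under 0.1 for the same comparison, and 36 of the 37 are among them. The 37 genes kept their sign in every other way of running the test in which they could be tested, 28 for 31 of them and 27 for the 6 that a stricter filter left out (Pecam1, Btla, Ebf1, Gramd2, Sspn and Gimap8), but the number called did not hold. It was 8, 14 and 2 without SAMHD1 Cardif dKO replicates 1, 2 and 3, and 12, 9 and 13 without SAMHD1 Sting dKO replicates 1, 2 and 3. Leaving out a library of the context groups gave 22 without SAMHD1 KO replicate 3, 17 without WT replicate 1 and 1 without WT replicate 3.

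**Figure D2:**
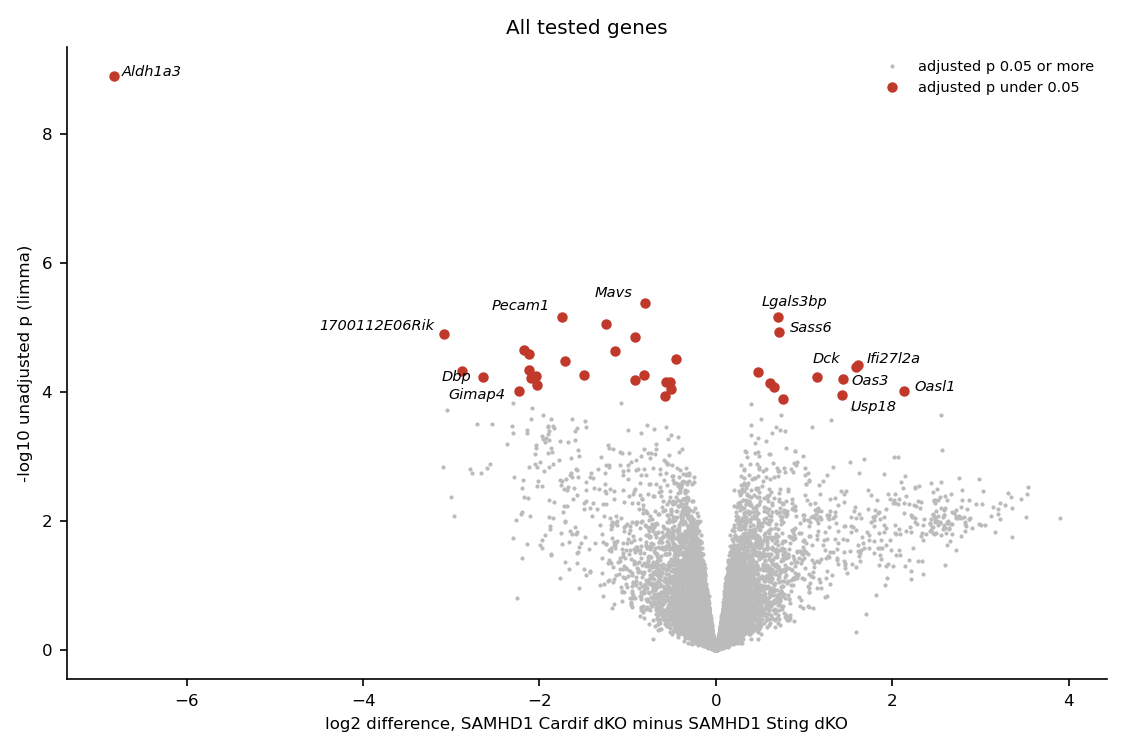
Log2 difference of SAMHD1 Cardif dKO minus SAMHD1 Sting dKO (horizontal) against -log10 of the unadjusted limma p (vertical) for the 13231 tested genes, with the 37 called genes in red. Aldh1a3 stands apart on the lower side at -6.83, and many genes beyond a log2 difference of 2 on the higher side are not called.

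Genes of the type I interferon response were higher in SAMHD1 Cardif dKO than in SAMHD1 Sting dKO. Of the 97 tested members of the list 8 rose and 0 fell, against 0.0907% and 0.189% of all tested genes, and 87 of the 97 had a positive log2 difference with a list median of 0.35, against -0.0009 for all tested genes. EdgeR also called 8 higher and 0 lower, DESeq2 called 26 higher and 1 lower, and at an unadjusted p under 0.05 there were 52 higher (7.97% of all tested genes) and 2 lower (7.72%). All 3 SAMHD1 Cardif dKO libraries lay above all 3 SAMHD1 Sting dKO libraries for 42 of the 97 (9.91% of all tested genes), and below them for 2. The 8 genes are Oas3 and Oasl1 of the oligoadenylate synthetase family, Usp18, Herc6, Ifi27l2a, Lgals3bp, Trim30a and Pyhin1. The list was chosen with earlier results of these data known, so its counts and shares are not independent of those results.

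Upstream windows of Oas3, Oasl1 and Trim30a are shown because these called genes hold the ISRE core in the 250 bases before their start, in RefSeq's annotation of GRCm38.p6 (a later build than the mm9 of the deposited table). Capitals mark each match to AAANNGAAA on either strand, and each window is written 5′ to 3′ in the direction of the gene.
Oas3 (chr5:120777660-120777909, minus strand): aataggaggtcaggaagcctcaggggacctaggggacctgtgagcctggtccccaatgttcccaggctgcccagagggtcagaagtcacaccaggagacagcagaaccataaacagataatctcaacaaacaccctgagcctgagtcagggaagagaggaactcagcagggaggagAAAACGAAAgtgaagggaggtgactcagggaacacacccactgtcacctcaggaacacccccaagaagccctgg
Oasl1 (chr5:114922990-114923239, plus strand): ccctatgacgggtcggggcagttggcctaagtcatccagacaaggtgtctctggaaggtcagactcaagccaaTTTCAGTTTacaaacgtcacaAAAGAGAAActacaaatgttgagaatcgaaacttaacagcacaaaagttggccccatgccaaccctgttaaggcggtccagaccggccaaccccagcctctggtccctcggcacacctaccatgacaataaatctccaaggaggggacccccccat
Trim30a (chr7:104465194-104465443, minus strand): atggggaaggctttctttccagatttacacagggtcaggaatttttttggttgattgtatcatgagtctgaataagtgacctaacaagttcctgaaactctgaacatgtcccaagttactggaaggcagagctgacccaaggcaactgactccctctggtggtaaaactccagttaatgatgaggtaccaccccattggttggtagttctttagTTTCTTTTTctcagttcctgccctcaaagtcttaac
The match begins 74 bases before the start in Oas3 and 36 bases before it in Trim30a, and the matches of Oasl1 begin 177 and 156 bases before it. A match stood in 5 of the 8 genes called higher that have a window (62.5%) and in 38 of the 75 interferon list members with one (50.7%), against 10.8% of all 27025 genes with a window. Among the genes called lower it stood in 3 of 21 (14.3%).

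The oligoadenylate synthetases make the small messenger that activates RNase L, an enzyme that degrades RNA in infected cells. Oas3 (ENSMUSG00000032661) had 833, 1340.5 and 997 in SAMHD1 Cardif dKO, against 395, 453 and 309 in SAMHD1 Sting dKO, and 2578 to 2689 in SAMHD1 KO and 453 to 895 in WT. Every SAMHD1 Cardif dKO library held more Oas3 reads than any SAMHD1 Sting dKO library, and SAMHD1 KO stood above both. The log2 difference was 1.44 (SE 0.240, adjusted p = 0.0327). Oasl1, a relative without that enzyme activity which in mice limits translation of Irf7, had 54.3, 93.3 and 47.3 in SAMHD1 Cardif dKO, against 9.90, 13.5 and 17.9 in SAMHD1 Sting dKO, and its log2 difference of 2.13 (SE 0.372, adjusted p = 0.0377) was the largest rise among the called genes. These few reads did not overlap between the groups, and Oasl1 ranged over 202 to 237 in SAMHD1 KO and 17.2 to 48.2 in WT. The other members of the family on the list (Oasl2, Oas2, Oas1a, Oas1b, Oas1c and Oas1g) did not pass. Among them, Oasl2 was at 1.06 (adjusted p = 0.125), Oas2 at 0.86 (adjusted p = 0.150) and Oas1g at 0.92 (adjusted p = 0.112). Oas1 genes are near copies of each other, and how reads were split between them is uncertain.

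Among regulators of the response, Usp18 removes the ubiquitin-like protein ISG15 from its targets and damps signalling of the interferon receptor. It had 166, 311 and 271 in SAMHD1 Cardif dKO, against 78.1, 105 and 85.9 in SAMHD1 Sting dKO, without overlap, a log2 difference of 1.43 (SE 0.254, adjusted p = 0.0414). Herc6, the main ligase that attaches ISG15 in mice, had 721, 643 and 658 in SAMHD1 Cardif dKO, against 400.2, 466 and 460.3 in SAMHD1 Sting dKO, again without overlap, and rose by 0.61 (SE 0.103, adjusted p = 0.0327) on the log2 scale. Isg15 itself had 71.7, 133 and 119 in SAMHD1 Cardif dKO, against 58.3, 60.7 and 60.8 in SAMHD1 Sting dKO. All 3 SAMHD1 Cardif dKO libraries were above the others, but the log2 difference of 0.79 (SE 0.250, adjusted p = 0.169) did not pass. Trim30a, a TRIM protein that restrains NF-kB signalling in mice, had 2574, 3028 and 2803 in SAMHD1 Cardif dKO, against 1914, 2055 and 2048 in SAMHD1 Sting dKO and rose by 0.48 (SE 0.0780, adjusted p = 0.0327), the smallest of the 8. Irf7, which drives further interferon synthesis, overlapped between the groups, with 1439, 2219 and 1813 in SAMHD1 Cardif dKO, against 937, 1487 and 1028 in SAMHD1 Sting dKO, and its log2 difference of 0.67 (SE 0.230, adjusted p = 0.190) did not pass.

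Lgals3bp, which encodes a secreted galectin-binding glycoprotein, was the most abundant of the 8, with 16128, 19118 and 18716 in SAMHD1 Cardif dKO, against 10833, 11889.9 and 10229.8 in SAMHD1 Sting dKO. The groups stood well apart, with a log2 difference of 0.71 (SE 0.0941, adjusted p = 0.0225), and Lgals3bp was at 29978 to 31318 in SAMHD1 KO and 15648 to 18759 in WT. Ifi27l2a, an interferon-inducible gene, had 1941, 3183 and 2665 in SAMHD1 Cardif dKO, against 826, 972 and 751 in SAMHD1 Sting dKO, a log2 difference of 1.59 (SE 0.253, adjusted p = 0.0327). Its neighbour Ifi27l2b, which is not on the list, was also called, at 1.61 (SE 0.255, adjusted p = 0.0327). In all 12 libraries the ratio of Ifi27l2a to Ifi27l2b reads lay between 1.95 and 2.08, so reads may be shared between these near copies and their separate values are uncertain. Pyhin1 (its identifier now carries the symbol Ifi209), of the PYHIN family of nucleic acid binding proteins, had 1075, 1272 and 1309 in SAMHD1 Cardif dKO, against 639.9, 789 and 722 in SAMHD1 Sting dKO and rose by 0.77 (SE 0.138, adjusted p = 0.0455). Its family holds near copies, so its reads are uncertain in the same way. Rsad2, the antiviral enzyme viperin, and Ifi44 did not overlap between the groups, but their log2 differences of 1.55 (SE 0.291, adjusted p = 0.0583) and 2.56 (SE 0.494, adjusted p = 0.0660) did not pass.

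Across the list, the mean of log2(normalized reads + 1) stood at 9.39, 9.81 and 9.70 in SAMHD1 Cardif dKO, against 9.11, 9.23 and 9.22 in SAMHD1 Sting dKO, a difference of 0.44 without overlap. It was 10.35, 10.50 and 10.23 in SAMHD1 KO and 9.72, 9.26 and 9.56 in WT, so SAMHD1 Cardif dKO overlapped with WT, and all 3 SAMHD1 Sting dKO libraries stood below every WT library. By group mean, SAMHD1 Sting dKO was the lowest of the 4 groups for 74 of the 97 genes (76.3%, against 29.6% of all tested genes) and SAMHD1 Cardif dKO for 6 (6.19%, against 17.9%). SAMHD1 KO was the highest for 91 (93.8%, against 23.9%). These shares carry the same limit, since the list was chosen with earlier results of these data known. Of the 10 members with a negative log2 difference, the 2 that were lower at an unadjusted p under 0.05 were Cd69, at 0 to 3.01 reads in SAMHD1 Cardif dKO, against 6.75 to 24.2 in SAMHD1 Sting dKO, and Ly6a, at 26.6 to 97.3 and 113 to 209, which lymphocytes also express. In bulk RNA, fewer cells of a type and less RNA per cell cannot be told apart. B cell markers and cell cycle genes, described further on, moved between the same groups. With the mean B cell marker level as a covariate the interferon list's median was 0.65 with 0 genes called, and with the mean mitosis level it was 0.53 with 5 called. The mean levels of the B cell and mitosis lists did not overlap between the dKO groups, so these fits cannot separate the covariates from genotype. Leaving out 1 library gave 0 interferon calls without SAMHD1 Cardif dKO replicate 2 or 3, SAMHD1 Sting dKO replicate 1 or WT replicate 3, with 1 call left when SAMHD1 Sting dKO replicate 2 or 3 was out. It gave 3 without SAMHD1 Cardif dKO replicate 1 or WT replicate 1, 5 without SAMHD1 KO replicate 2 and 4 without SAMHD1 KO replicate 3.

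**Figure D3:**
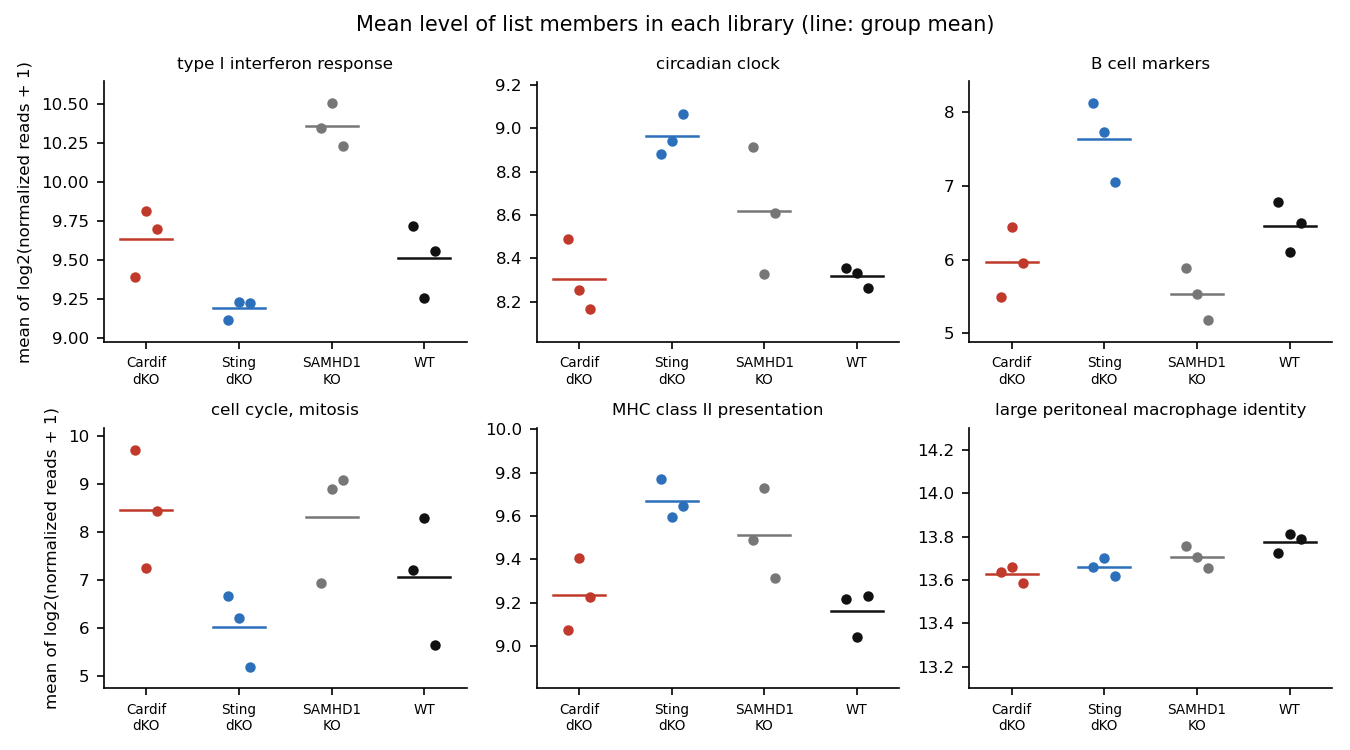
Mean log2(normalized reads + 1) over the tested members of 6 gene lists in each library, with a line at the group mean (n = 3 each), for SAMHD1 Cardif dKO, SAMHD1 Sting dKO, SAMHD1 KO and WT. The interferon mean is at least 9.39 in SAMHD1 Cardif dKO and at most 9.23 in SAMHD1 Sting dKO. The clock, B cell and MHC class II means are lower in SAMHD1 Cardif dKO than in SAMHD1 Sting dKO. Between the same groups the mitosis mean is higher in SAMHD1 Cardif dKO, and the macrophage identity means overlap.

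Of the sensors and adaptors themselves, few passed the test. Among the 33 genes of the RNA sensing route 0 rose and 1, Mavs, fell (0.189% of all tested genes fell), the list median was 0.01, and at an unadjusted p under 0.05 there were 8 higher and 1 lower, with 0 higher and 1 lower by edgeR and 1 higher and 1 lower by DESeq2. Ifih1, which encodes MDA5, had 849, 1156 and 1177 in SAMHD1 Cardif dKO, against 929, 985 and 921 in SAMHD1 Sting dKO, overlapping groups with a log2 difference of 0.15 (SE 0.117, adjusted p = 0.584). Ddx58, which encodes RIG-I, overlapped likewise, at 1068 to 1459 and 1012 to 1127 reads and a log2 difference of 0.26 (SE 0.117, adjusted p = 0.312). Dhx58, the third member of this helicase family, did not overlap, with 929, 1261 and 1069 in SAMHD1 Cardif dKO, against 777, 799.9 and 733 in SAMHD1 Sting dKO, but its log2 difference of 0.49 (SE 0.134, adjusted p = 0.138) did not pass. Among the 32 genes of the DNA sensing route limma and edgeR called 0, and DESeq2 1 higher and 1 lower, the median was 0.05, and 4 were higher and 3 lower at an unadjusted p under 0.05. Irf3 and Tbk1, on which both routes converge, stood at 0.00 (adjusted p = 0.994) and 0.05 (adjusted p = 0.785). Trex1, the exonuclease that removes cytosolic DNA, had 1127 to 1272 reads in SAMHD1 Cardif dKO, against 954 to 1128 in SAMHD1 Sting dKO, and its log2 difference of 0.26 (SE 0.115, adjusted p = 0.300) did not pass.

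Genes shared with the interferon-gamma response showed smaller differences. Limma and edgeR called 0 of the 28 interferon-inducible GTPases and interferon-gamma targets and DESeq2 1 higher, with a median of 0.18 and 5 higher and 3 lower at an unadjusted p under 0.05. Gbp6, a guanylate-binding protein, did not overlap, with 181, 248 and 224 in SAMHD1 Cardif dKO, against 109.9, 105 and 159 in SAMHD1 Sting dKO, but its log2 difference of 0.82 (SE 0.222, adjusted p = 0.136) did not pass, and near copies in the family make its reads uncertain. Of 26 genes for MHC class I molecules and their loading, 23 had a positive difference with a median of 0.19, limma and edgeR called 0, DESeq2 1 higher, and 5 were higher at an unadjusted p under 0.05. Tapbp, which loads peptide onto class I molecules, had 11510.1, 12898 and 12461 in SAMHD1 Cardif dKO, against 10869, 11178 and 10391 in SAMHD1 Sting dKO, without overlap and with a log2 difference of 0.18 (SE 0.0807, adjusted p = 0.297). The MHC class II list lay on the other side, with a median of -0.54 over 16 genes, or 0.08 with the mean B cell marker level and -0.14 with the mean mitosis level as a covariate. Limma and edgeR called 0 of them, DESeq2 3 lower, and 8 were lower at an unadjusted p under 0.05. Cd74, the invariant chain, had 5004, 7831 and 5597 in SAMHD1 Cardif dKO, against 13496, 7373 and 9174 in SAMHD1 Sting dKO, overlapping at SAMHD1 Cardif dKO replicate 2, and H2-Ob, found on B cells, did not overlap, at -0.78 (adjusted p = 0.0722).

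Enzymes that make deoxynucleotides bear on the substrate of SAMHD1. Dck (ENSMUSG00000029366), the deoxycytidine kinase of the salvage pathway, was the 1 called gene among the 29 of deoxynucleotide metabolism (0.0907% of all tested genes rose), and the list median was 0.24, or 0.065 with the mean mitosis level as a covariate. It had 2062, 1318 and 1259 in SAMHD1 Cardif dKO, against 730.0, 776 and 559 in SAMHD1 Sting dKO. Each SAMHD1 Cardif dKO library was above each SAMHD1 Sting dKO library, with replicate 1 highest, and the log2 difference was 1.14 (SE 0.189, adjusted p = 0.0327). SAMHD1 KO had 1668 to 2082 and WT 815 to 1089 reads of Dck. The S phase enzymes varied more between replicates: Rrm2, a subunit of ribonucleotide reductase, had 2453, 461 and 656 in SAMHD1 Cardif dKO, against 175, 157 and 32.2 in SAMHD1 Sting dKO, and its log2 difference of 3.22 (SE 0.946, adjusted p = 0.153) did not pass. Rrm2b, the subunit that serves resting cells, overlapped at 354 to 444 and 369.7 to 418 reads, with a log2 difference of 0.06 (SE 0.123, adjusted p = 0.851).

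Proliferation genes pointed one way but with wide spread. All 44 DNA replication genes and all 45 mitosis genes had a positive log2 difference, with medians of 1.5 and 2.58 against -0.0009 for all tested genes. Limma and edgeR called 0 of either list, DESeq2 called 9 and 24 higher, and 40 and 44 were higher at an unadjusted p under 0.05. Mki67, the classic marker of cycling cells, had 5694, 1005 and 2203 in SAMHD1 Cardif dKO, against 565, 436 and 291 in SAMHD1 Sting dKO. The groups did not overlap, but the SAMHD1 Cardif dKO libraries differed among themselves by more than the SAMHD1 Sting dKO libraries, with replicate 1 far above the others, and the log2 difference was 2.48 (SE 0.730, adjusted p = 0.153). SAMHD1 KO (908, 3146 and 3642) and WT (853, 2029.7 and 322) varied between replicates in the same way. The mitosis genes summed to 9718 to 50568 reads in SAMHD1 Cardif dKO, 2948 to 6430 in SAMHD1 Sting dKO, 8125 to 31903 in SAMHD1 KO and 3795 to 19017 in WT. Sass6, which builds the core of new centrioles, was called, with 509, 438 and 458 in SAMHD1 Cardif dKO, against 297, 271 and 283 in SAMHD1 Sting dKO and a log2 difference of 0.72 (SE 0.101, adjusted p = 0.0236). SAMHD1 Cardif dKO replicate 1 also held 130 reads of Col1a1, 130 of Col3a1 and 77.8 of Col1a2, collagen genes of fibroblasts, which were at 0 to 9 in the other 11 libraries. They did not reach the filter on reads, and their part in the result was not tested. With the mean B cell marker level as a covariate the medians were 0.57 for replication and 0.72 for mitosis, and with the mean mitosis level that of replication was 0.12. With the mean mitosis level as a covariate 7 genes of the table were called, 6 higher and 1 lower.

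**Figure D4:**
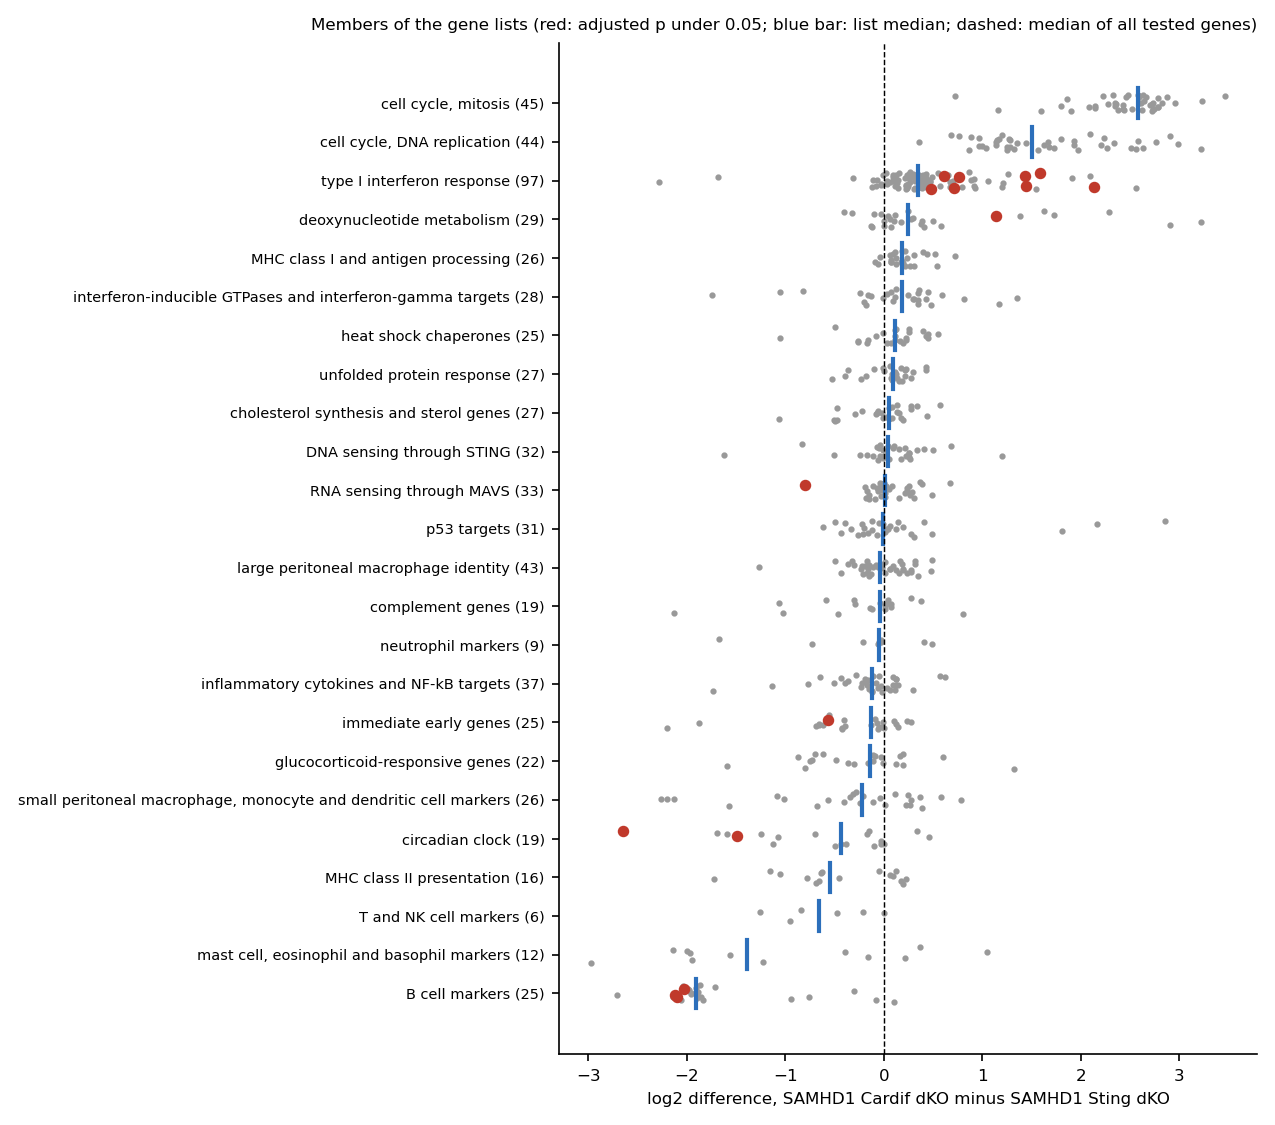
Log2 difference of SAMHD1 Cardif dKO minus SAMHD1 Sting dKO for each tested member of the lists with at least 5 tested genes (number tested in brackets), with called genes in red, a blue bar at each list's median and a dashed line at the median of all tested genes. Medians run from 2.58 for mitosis to -1.91 for B cell markers, and the 8 red points of the interferon list all lie above 0.

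On the lower side, Aldh1a3 (ENSMUSG00000015134), an enzyme that makes retinoic acid from retinaldehyde, showed the largest difference of the whole table. It had 6.15, 5.02 and 6.06 in SAMHD1 Cardif dKO, against 596, 1308 and 566 in SAMHD1 Sting dKO. The SAMHD1 Cardif dKO libraries held single-digit reads and every SAMHD1 Sting dKO library 566 or more. The log2 difference was -6.83 (SE 0.412, adjusted p = 1.68e-05). SAMHD1 KO (1.89 to 3.30) and WT (1.48 to 5.73) stood with SAMHD1 Cardif dKO, so Aldh1a3 reads were high in the SAMHD1 Sting dKO group alone of the 4. It passed the test in 27 of 28 other ways of running it, the exception being the B cell covariate, where its log2 difference was -6.90. Rarb, a retinoic acid receptor on the macrophage identity list, was at -0.11 (SE 0.226, adjusted p = 0.859).

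Clock output genes were lower in SAMHD1 Cardif dKO than in SAMHD1 Sting dKO. In the circadian clock, CLOCK and BMAL1 switch on Per, Nr1d, Dbp and Tef genes through E-box elements, and the products of Dbp and Tef are transcription factors that bind D-box elements in turn. Of the 19 tested clock genes, 2 fell (0.189% of all tested genes fell), Dbp and Tef, 0 rose, and the list median was -0.43. EdgeR called 3 lower, DESeq2 5 lower and 1 higher, and 8 were lower and 1 higher at an unadjusted p under 0.05. The gene higher at that level was Nfil3, with a log2 difference of 0.46 (adjusted p = 0.136 by limma). Upstream windows of Tef and Per3 are shown because they hold these elements, with the E-box CACGTG in capitals in Tef and the D-box TTATGTAA in Per3, from RefSeq on GRCm38.p6, where Tef has 2 start sites with a match.
Tef, first start (chr15:81802423-81802672, plus strand): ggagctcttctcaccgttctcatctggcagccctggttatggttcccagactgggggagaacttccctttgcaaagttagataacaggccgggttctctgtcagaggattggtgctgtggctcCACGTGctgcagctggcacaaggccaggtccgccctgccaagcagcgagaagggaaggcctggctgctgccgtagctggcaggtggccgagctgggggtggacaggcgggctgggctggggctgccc
Tef, second start (chr15:81811164-81811413, plus strand): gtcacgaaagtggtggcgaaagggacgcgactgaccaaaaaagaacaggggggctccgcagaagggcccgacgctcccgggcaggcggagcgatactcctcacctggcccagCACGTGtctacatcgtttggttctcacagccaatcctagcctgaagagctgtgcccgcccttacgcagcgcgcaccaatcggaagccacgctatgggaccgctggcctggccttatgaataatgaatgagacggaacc
Per3 (chr4:151044666-151044915, minus strand): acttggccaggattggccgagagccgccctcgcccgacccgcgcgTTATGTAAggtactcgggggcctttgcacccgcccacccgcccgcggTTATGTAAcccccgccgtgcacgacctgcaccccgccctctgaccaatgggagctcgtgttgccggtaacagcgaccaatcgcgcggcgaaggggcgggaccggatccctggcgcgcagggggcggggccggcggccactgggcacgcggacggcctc
The E-box stood in 5 of the 16 clock genes with a window (31.2%) and the D-box in 1 of 16, Per3, against 6.86% and 0.977% of all 27025 genes with a window. Among the 21 genes called lower that have a window, the E-box stood in 1, Tef (4.76%), and the D-box in 0. No motif of the 3 contains another, and a match is a description of the letters, not of binding.

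Dbp (ENSMUSG00000059824) had 70.7, 37.1 and 36.4 in SAMHD1 Cardif dKO, against 265, 309 and 299 in SAMHD1 Sting dKO, and 24.8 to 78.3 in SAMHD1 KO and 15.6 to 40.7 in WT. Every SAMHD1 Sting dKO library was above every other library of the study, and the log2 difference was -2.64 (SE 0.437, adjusted p = 0.0327). Tef had 593, 424 and 471 in SAMHD1 Cardif dKO, against 1239, 1366 and 1565 in SAMHD1 Sting dKO. These groups did not overlap either, and Tef fell by 1.49 (SE 0.245, adjusted p = 0.0327). Per3 had 398, 264 and 329.6 in SAMHD1 Cardif dKO, against 618, 619.9 and 842 in SAMHD1 Sting dKO and missed the threshold at -1.07 (SE 0.196, adjusted p = 0.0509). Per1, which also responds to glucocorticoids, had 1211, 1022 and 474 in SAMHD1 Cardif dKO, against 2580.4, 2191 and 2853 in SAMHD1 Sting dKO with a log2 difference of -1.59 (SE 0.342, adjusted p = 0.0837). For both Per genes all SAMHD1 Cardif dKO libraries were below all SAMHD1 Sting dKO libraries. Nr1d1, a repressor within the clock, had 925, 374 and 418 in SAMHD1 Cardif dKO, against 1707, 1786 and 1596 in SAMHD1 Sting dKO and a log2 difference of -1.69 (SE 0.505, adjusted p = 0.157). The core activators overlapped: Arntl, which encodes BMAL1, was at -0.03 (adjusted p = 0.933) and Clock at 0.00 (adjusted p = 0.987). The mean level of the clock list was 8.17 to 8.49 in SAMHD1 Cardif dKO and 8.88 to 9.06 in SAMHD1 Sting dKO. It was 8.33 to 8.91 in SAMHD1 KO, which overlapped with SAMHD1 Sting dKO, and 8.26 to 8.35 in WT. The clock list's median was -0.66 with the mean B cell marker level as a covariate and -0.30 with the mean mitosis level. No source used here gives the hour at which cells were taken.

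Markers of B cells, which share the peritoneal cavity with macrophages, were lower in SAMHD1 Cardif dKO. Of 25 tested markers (28 on the list), 24 had a negative log2 difference with a median of -1.91, and 3 fell (0.189% of all tested genes fell), Ebf1, Cd22 and Igh-6, which encodes the IgM heavy chain. EdgeR called 4 lower, DESeq2 20 lower, and 23 were lower at an unadjusted p under 0.05. With the mean mitosis level as a covariate the list median was -1.35. Cd79b, a signalling chain of the B cell receptor, had 69.6, 203 and 133 in SAMHD1 Cardif dKO, against 727, 499 and 279 in SAMHD1 Sting dKO, and no marker in the table was at 0 in either group. Cd79b had 67.9 to 98.1 in SAMHD1 KO and 116 to 181 in WT, and all 3 SAMHD1 Cardif dKO libraries lay below all 3 SAMHD1 Sting dKO libraries. Summed over the list, the reads were 16892 to 18808 in SAMHD1 Cardif dKO, against 20284 to 26338 in SAMHD1 Sting dKO, most of them from Cd37, whose log2 difference was -0.08 (adjusted p = 0.618) and which macrophages also express. Igh-6 had 319.6, 649 and 387 in SAMHD1 Cardif dKO, against 2657, 2095 and 1139 in SAMHD1 Sting dKO, a log2 difference of -2.10 (SE 0.349, adjusted p = 0.0327). Cd22, an inhibitory receptor, had 58.4, 158 and 90.9 in SAMHD1 Cardif dKO, against 504, 413 and 279 in SAMHD1 Sting dKO and Ebf1, the factor that specifies the lineage, 12.3, 17.1 and 15.8 in SAMHD1 Cardif dKO, against 108, 64.1 and 45.3 in SAMHD1 Sting dKO. All 3 were highest in SAMHD1 Sting dKO replicate 1 and did not overlap.

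Lymphocyte genes outside the list were also called lower. Btla, an inhibitory receptor of lymphocytes, had 15.4, 22.1 and 20.6 in SAMHD1 Cardif dKO, against 109, 115 and 58.4 in SAMHD1 Sting dKO and fell by 2.18 (SE 0.325, adjusted p = 0.0309) without overlap. Gimap4 and Gimap8, GTPases of lymphocytes, were at -2.23 (SE 0.390, adjusted p = 0.0377) and -2.04 (SE 0.336, adjusted p = 0.0327). With the mean B cell marker level as a covariate, the log2 difference was -0.90 for Btla, -0.35 for Gimap4, -0.95 for Gimap8 and -0.16 for Igh-6. In that fit limma called 0 genes of the table, with 744 at an unadjusted p under 0.05. Igh-6 is itself a member of the B cell list that makes the covariate. The mean B cell marker level was 5.49 to 6.44 in SAMHD1 Cardif dKO and 7.05 to 8.12 in SAMHD1 Sting dKO. These levels did not overlap, so the fit cannot separate the covariate from genotype. T and NK cell markers were few, with 6 of 28 tested, a median of -0.66 and 0 called by limma or edgeR and 1 lower by DESeq2, and 1 was lower at an unadjusted p under 0.05. Mast cell, eosinophil and basophil markers (12 of 25 tested) had a median of -1.39. Limma and edgeR called 0 of them, DESeq2 4 lower, and 6 were lower and 1 higher at an unadjusted p under 0.05. Cpa3, a mast cell protease, had 11.3, 4.01 and 2.42 in SAMHD1 Cardif dKO, against 114, 107 and 7.16 in SAMHD1 Sting dKO, with SAMHD1 Sting dKO replicate 3 among the low libraries. Summed reads of the T and NK list were 280 to 430 in SAMHD1 Cardif dKO, against 447 to 605 in SAMHD1 Sting dKO, and those of the mast cell list overlapped at 14486 to 22673 and 13602 to 18677. Cpa3, at 114 reads or fewer, was a small part of the mast cell sums. Fcer1a and Slc18a2 were at 0 in all SAMHD1 Cardif dKO libraries. They were also at 0 in SAMHD1 Sting dKO replicate 3, and at 0 to 3.71 in SAMHD1 KO and WT. The part of all these cell types in the called differences was not tested beyond the B cell covariate, with the limit given.

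The other genes called lower had varied functions. Cd209b, a C-type lectin of resident macrophages that binds microbial sugars, had 639, 906 and 1112 in SAMHD1 Cardif dKO, against 1650.3, 1536 and 1729 in SAMHD1 Sting dKO. The groups did not overlap, SAMHD1 KO (744 to 859.9) stood with SAMHD1 Cardif dKO and WT (1334 to 1464) nearer to SAMHD1 Sting dKO, and the log2 difference was -0.92 (SE 0.154, adjusted p = 0.0327). Tns3, a tensin of cell adhesions, had 119, 141 and 114 in SAMHD1 Cardif dKO, against 278, 254 and 369.7 in SAMHD1 Sting dKO, a log2 difference of -1.25 (SE 0.170, adjusted p = 0.0236). Sh3pxd2a, a scaffold of podosomes, did not overlap either, at 136 to 162 and 244 to 310.1 reads and a log2 difference of -0.92 (SE 0.131, adjusted p = 0.0236). Pecam1, an adhesion molecule of endothelium and leukocytes, had 23.6, 24.1 and 25.4 in SAMHD1 Cardif dKO, against 101, 76.5 and 76.3 in SAMHD1 Sting dKO and fell by 1.74 (SE 0.231, adjusted p = 0.0225), without overlap. Rcn3, a calcium-binding protein of the endoplasmic reticulum, had 68.6, 86.3 and 71.5 in SAMHD1 Cardif dKO, against 201, 219 and 347 in SAMHD1 Sting dKO and fell by 1.71 (SE 0.267, adjusted p = 0.0327). 1700112E06Rik (now Lrmda) had 15.4, 19.1 and 20.6 in SAMHD1 Cardif dKO, against 173, 164 and 148 in SAMHD1 Sting dKO. Its groups stood far apart, with 24.7, 16.5 and 74.5 in SAMHD1 KO and 244, 133 and 125 in WT, and the log2 difference was -3.08 (SE 0.434, adjusted p = 0.0236). Jund, an AP-1 subunit, was the 1 called gene of 25 immediate early genes (0.189% of all tested genes fell), whose median was -0.13, with 1129.7, 1274 and 1171 in SAMHD1 Cardif dKO, against 1883, 1869 and 1571 in SAMHD1 Sting dKO and a log2 difference of -0.57 (SE 0.0962, adjusted p = 0.0327). The other 8 genes called lower (Sspn, Gramd2, Fchsd2, Sh3bp5, Fry, Nav1, 2210403K04Rik and A430105I19Rik) ranged in log2 difference from -2.87 to -0.45, and Banp, a nuclear protein that binds DNA, rose by 0.66 (adjusted p = 0.0354).

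Genes beside the targeted loci, which can come from the strain of the stem cells in which an allele was made, were read separately. Among the 50 nearest tested genes on each side, in GENCODE M21 order, limma called 0 of 100 around Mavs on chromosome 2, 0 of 100 around Samhd1 on the same chromosome and 0 of 100 around Tmem173 on chromosome 18. At an unadjusted p under 0.05 the shares were 14%, 22% and 13%, against 15.7% of all tested genes. The mean level of the macrophage identity genes overlapped between the groups: limma, edgeR and DESeq2 called 0 of the 43, 3 were higher and 1 was lower without overlap, 1 was higher and 1 lower at an unadjusted p under 0.05, and the median was -0.04. Cxcl13, a chemokine that draws B cells and is made by these macrophages, was the member with the lowest p, with 6169.8, 18746 and 22689 in SAMHD1 Cardif dKO, against 34699, 25656 and 40924 in SAMHD1 Sting dKO and a log2 difference of -1.27 (SE 0.401, adjusted p = 0.169).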

How the data were processed

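The deposited signal values are reads per Ensembl 61 gene on mm9, per the file headers, scaled by the authors with a size factor for each library. Per the submitters' processing notes, bedtools 2.16.2 and DESeq 1.6.1 were used, and no source used here names the aligner or says whether counting used strand. Every value was a whole number of reads (100%, to within 1e-04 reads) once divided by its library's smallest value above 0, which recovered the reads. In SAMHD1 Cardif dKO replicate 2 that smallest value was 1.0034, close to 1. Its low values were multiples of that step, such as 2.007 for Cd3g and 3.01 for Cd3e, and not rounded whole numbers. The deposited p-value columns come from the authors' own test and were used only as such. The SE of a log2 difference follows the spread between libraries, and its median was 0.135.

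The main test was limma-trend (limma 3.58.1, R 4.3.3) on log2(normalized reads + 1). Adding 1 shrinks the fold changes of weakly read genes. One mean per genotype was fitted to all 12 libraries, with 8 residual degrees of freedom, for genes that reached 10 normalized reads in 3 libraries or more. The p-values were adjusted by Benjamini-Hochberg over all 13231 genes at a threshold of 0.05, and the log2 difference is SAMHD1 Cardif dKO minus SAMHD1 Sting dKO. The script was tested on simulated data. EdgeR 4.0.16 and DESeq2 1.42.0 on the recovered reads, limma-voom, other filters, pseudocounts of 0.5 and 5, covariates and left-out libraries were the 28 alternatives.

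Lists (26, with 786 genes, 718 in the table and 666 tested) are described by counts and medians, and some genes stand on more than 1 list. The members and lists were chosen with earlier results of these data known. Named were the targeted genes, up to 12 called genes in each direction with the largest differences, a mean of at least 50 normalized reads over the 6 dKO libraries and groups that do not overlap, and the 4 members of each list with the lowest p, or all where fewer were tested. Other called genes and list members of known function were named after their values were seen. Some genes that the rule names are not reported here. Upstream windows of 250 bases are RefSeq's on GRCm38.p6, a different build from that of the reads, and were matched by symbol or identifier.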

Additional observations from a re-analysis of the deposited data

How the results depend on the processing

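Counts of called genes depended on the spread and on covariates. Against 37 genes (12 higher, 25 lower, and 8 interferon genes higher with 0 lower) in the main test, DESeq2 called 503 (257, 246, and 26 with 1), and the 6 dKO libraries alone gave 7 (3, 4 and 1). Covariates gave 0 (0, 0 and 0) for the B cell marker level, 7 (6, 1 and 5) for the mitosis level, 4 (1, 3 and 0) for age and 8 (4, 4 and 3) for sex. Without both first dKO libraries, which hold the male mouse and the age of 24, it was 2 (0, 2 and 0). Limma-voom called 5 higher, 3 of them interferon genes. Leaving out 1 library at a time gave 1 to 44 genes, 0 to 16 higher, 1 to 29 lower and 0 to 11 interferon genes. To look for pairing, each gene's group mean was subtracted from its log2 values, and these deviations were correlated between the dKO groups. For libraries of equal replicate number the correlations were 0.22, 0.002 and 0.329. Deviations within a group sum to 0 for each gene, so the correlations depend on each other. Replicates 1 and 3 of SAMHD1 Cardif dKO correlated best with their own number. Replicate 2 did not, with 0.076 for SAMHD1 Sting dKO replicate 3. Whether the numbers pair the libraries is thus undecided. The replicate block gave 23 genes, 3 higher, 1 of them an interferon gene.

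Mavs kept its sign in every alternative, from -0.92 to -0.73 with 1 library left out, where it no longer passed without SAMHD1 Cardif dKO replicate 3 or WT replicate 3. It also did not pass with the B cell (-0.72) or mitosis (-0.70) covariate, without both first dKO libraries (-0.71) or in the 6 dKO libraries alone (-0.80). Samhd1, at -0.03 in the main test, was at 0.019 without both first dKO libraries, 0.15 with mitosis, 0.11 with sex and -0.16 to 0.14 with 1 library left out. Tmem173 kept its sign. The interferon mean differed by 0.35 to 0.57 with 1 library left out. Of 3082 values of the 111 other named genes under the alternatives, 2697 kept their direction and call, 325 lost and 42 gained the call, and 18 changed sign, none of them a called gene. With the B cell covariate these were Il5ra (0.35), Tlr9 (0.46), Cd2 (0.34), Plk3 (0.0041), Ccr7 (0.28), Prtn3 (-0.017), H2-DMb2 (0.33), Stab1 (0.16), F13a1 (0.34), Bhlhe41 (0.37), Cd74 (0.20), Il7r (0.042) and Elane (-1.30). With the mitosis covariate they were Gtse1 (-0.088), Nt5e (-0.042) and Elane (-0.085), and with 1 library left out Krt7 (-0.087 to 0.23) and Pf4 (-0.046 to 0.13). The cause of these changes was not tested. Genes of under about 10 reads, such as Aldh1a3 in SAMHD1 Cardif dKO, are limited by depth.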

Other observations

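In the gene lists not described above, limma and edgeR called 0 genes between SAMHD1 Cardif dKO and SAMHD1 Sting dKO. The list for small peritoneal macrophages, with monocytes and dendritic cells (26 tested), had a median log2 difference of -0.22, with 2 higher and 8 lower at an unadjusted p under 0.05, while DESeq2 called 1 higher and 2 lower. Complement genes (19 tested) had a median of -0.04, with 1 higher and 4 lower at an unadjusted p under 0.05, with 2 lower by DESeq2. C5ar1, the receptor for the complement fragment C5a, had 3782, 5462 and 4292 in SAMHD1 Cardif dKO, against 5921, 6408 and 7892 in SAMHD1 Sting dKO, and Cd55, which protects cells from complement, had 96.3, 183 and 172 in SAMHD1 Cardif dKO, against 420, 244 and 269.5 in SAMHD1 Sting dKO. Neither overlapped, and their log2 differences were -0.59 (adjusted p = 0.123 by limma) and -1.06 (adjusted p = 0.115 by limma). With the mean B cell marker level as a covariate the difference for Cd55 was -0.064.

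Inflammatory cytokines and NF-kB targets (37 tested) had a median of -0.12, with 1 higher and 5 lower at an unadjusted p under 0.05, and DESeq2 called 0. The 31 p53 targets had a median of -0.01 and a mean of 0.17, which differ in sign, with 6 higher and 2 lower at an unadjusted p under 0.05, with 2 higher by DESeq2. Heat shock chaperones (25 tested) had a median of 0.12, with 4 higher and 2 lower at an unadjusted p under 0.05, with 1 lower by DESeq2. Genes of the unfolded protein response (27 tested) had a median of 0.09, with 3 higher and 2 lower at an unadjusted p under 0.05, with 1 higher by DESeq2. The glucocorticoid-responsive genes (22 tested) had a median of -0.14, with 0 higher and 4 lower at an unadjusted p under 0.05, with 1 lower by DESeq2. Genes of cholesterol synthesis and sterols (27 tested) had a median of 0.05 and a mean of -0.03, with 1 higher and 3 lower at an unadjusted p under 0.05, and DESeq2 called 0. Neutrophil markers (9 tested) had a median of -0.05, with 1 higher at an unadjusted p under 0.05, and DESeq2 called 0. Of the 2 mesothelial and fibroblast markers tested, 0 passed at an unadjusted p under 0.05 or by DESeq2. Among those not tested, Col1a1, Col1a2 and Col3a1 were read mainly in SAMHD1 Cardif dKO replicate 1, as given above. Of 4 red cell and platelet markers 1 was higher both at that level and in DESeq2, the integrin gene Itgb3, with 1540, 1341 and 1781 in SAMHD1 Cardif dKO, against 1226, 918 and 725 in SAMHD1 Sting dKO. Among red cell genes too low to be tested, Hbb-b1 had 63.2 and Hba-a1 21.5 reads in SAMHD1 Sting dKO replicate 3, against 0 to 2.86 and 0 to 1.48 in the other 11 libraries.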
